A study of Mus musculus with 8 samples.

Results

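The collagen chain genes encode the α chains from which collagens are assembled. They were taken as every gene whose symbol consists of Col, a number, the letter a and a number, with nothing after it. This gave 44 of the 54146 genes with values in all 8 libraries. The rule used gene symbols and no measured value, but it was set with earlier results of these data known. None of the 44 was at 0 in every library. The products of 11 of them are fibrillar, and those of 6 form the network of basement membranes. The other genes encode 9 fibril-associated chains, 6 chains of beaded filaments, 3 of short-chain networks, 2 multiplexins, 4 membrane-spanning chains, 1 chain of anchoring fibrils and 2 chains of other types (Col26a1 and Col28a1).

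A collagen molecule is a helix wound from α chains, which may be copies of a single gene product or the products of different genes. Chains of types I, III, V and XI co-assemble into fibrils whose diameter the type V and XI chains help to set, type IV chains form the sheet of basement membranes, and type XVIII collagen is the precursor of endostatin. In the brain, collagens lie mainly in the basement membranes of blood vessels and of the pial surface, where astrocyte endfeet contact them.

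Astrocytes were grown from the cortices of neonatal C57BL/6 mice in medium with serum, and were infected with a lentivirus, selected with puromycin and depleted of CD11b-positive microglia. Control KD astrocytes carried a non-silencing short hairpin RNA (shRNA) and GSTM1 KD astrocytes an shRNA against Gstm1, a mu-class glutathione S-transferase. Both were left unstimulated (the basal level, without TNF-α) or received the cytokine TNF-α at 50 ng/ml for 6 h, which gave 4 groups of 2 biological replicates. The shRNA was not restricted to any cell type of the culture, and all groups, controls included, had passed through infection and selection.

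The expected counts summed to between 17349676 and 34434633 per library. Gstm1 itself had 8153 and 9644 counts in control KD against 676 and 626 in GSTM1 KD without TNF-α, and 4851 and 6492 against 527 and 405 with TNF-α. The replicates of control KD differed more than those of GSTM1 KD. Their counts varied 55.4 times as much as sampling alone would give without TNF-α and 37.0 times with TNF-α, against 13.8 and 15.8 times in GSTM1 KD. The 9 astrocyte markers of a preset list summed to between 1581 and 3787 TPM (transcript abundance per 1000000, which corrects for gene length) in control KD. In GSTM1 KD the sum ran from 3496 to 5724 TPM and was mostly Gfap. Gfap differed 3.09-fold and 3.14-fold between the control KD replicates, without and with TNF-α. In GSTM1 KD against control KD, 6 markers had positive and 3 negative log2 fold changes without TNF-α, and 5 and 4 with TNF-α. Only S100b of these markers passed the test below, as lower in GSTM1 KD in both states (11.1% of the list, against 5.62% and 8.92% of all genes). Their part in the collagen levels was not tested. Of the 10 markers of meningeal or perivascular fibroblasts, Slc6a13 was at 0 and Dpt at no more than 1 count in every library, and Dcn, which fibroblasts make in abundance, stood between 1.00 and 2.40 TPM. Their sum, mostly Islr, ran from 76.5 to 140 TPM in control KD and from 108 to 124 TPM in GSTM1 KD. The oligodendrocyte lineage markers summed to between 446 and 593 TPM in control KD against 339 to 440 TPM in GSTM1 KD, and Olig2, a transcription factor of that lineage, was lower in both states (log2 fold changes -0.85 and -1.14), as was Olig1 with TNF-α. Choroid plexus markers summed to between 0.85 and 3.04 TPM against 4.75 to 9.67 TPM, in GSTM1 KD mostly Folr1. Folr1 was higher in both states (6.35-fold and 6.86-fold) from 3 to 55 counts per library. Aqp1, the only other one tested, had log2 fold changes of -0.40 without and 0.15 with TNF-α, and the remaining markers had at most 9 counts per library. Endothelial markers summed to between 5.75 and 8.27 TPM against 3.18 to 5.4 TPM, with all 3 tested at an unadjusted p under 0.05 without TNF-α and 0 called. Of these, 2 were lower and 1, Kdr, was higher (21 and 31 counts in control KD against 40 and 59 in GSTM1 KD). The part of these cells in the collagen levels was not tested.

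The cultures expressed collagens of several types, and a few chains made up most of the message. Col5a2, the α2 chain of type V collagen, had the highest mean level (189 TPM over the 8 libraries). It was followed by Col12a1, a fibril-associated chain, at 142 TPM, Col8a1, a short-chain network collagen, at 125 TPM, and the type IV chains Col4a1 and Col4a5 at 89.0 and 79.5 TPM. These 5 genes held 65.3% of the summed mean TPM of all 44. The 14 genes with a mean above 10 TPM held 95.8% and also included Col4a6, Col4a2, Col1a1, Col1a2, Col11a1, Col18a1, Col5a1, Col6a1 and Col3a1.

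**Figure D1:**
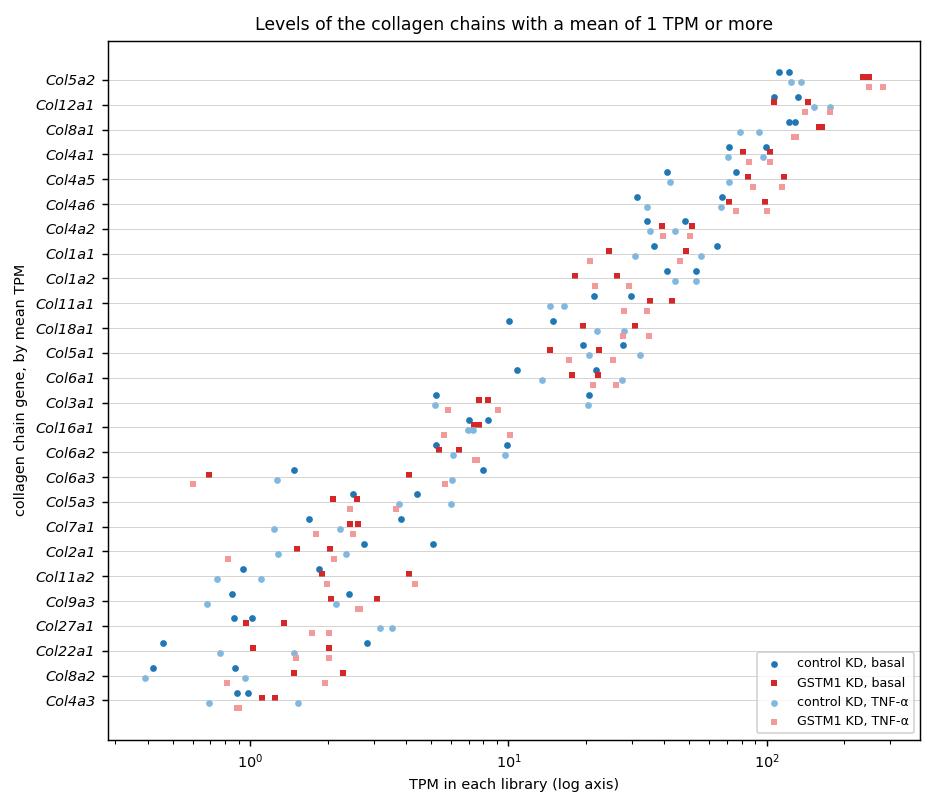
TPM of the 26 collagen chain genes with a mean of 1 TPM or more, ordered by mean level, on a log axis with 1 point per library and the groups marked by colour and shape. Col5a2 lies at the top with GSTM1 KD points from 237 to 284 TPM and control KD points from 111 to 135 TPM, and Col6a3 spreads most widely within groups.

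The order of neighbouring levels was not fixed across libraries. Over the 4 groups together, Col12a1 ranged from 106 to 177 TPM and Col8a1 from 78.7 to 163 TPM. Which of these neighbours was higher changed with the group. Col8a1 was higher in both GSTM1 KD libraries without TNF-α (163 and 159 TPM against 107 and 145 TPM). Col12a1 was higher in every library with TNF-α, and the order differed between the replicates of control KD without TNF-α. The pooled ranges of Col4a1 (71.0 to 103 TPM), Col4a5 (41.3 to 116 TPM) and Col4a6 (31.5 to 101 TPM) overlapped as well. The ratio of Col4a5 to Col4a1 is given by group below. At the low end, 18 genes had a mean under 1 TPM. A count of 3, taken here as the floor, corresponded to between 0.0871 and 0.173 CPM (counts scaled to library size, per 1000000), and 5 genes stayed at or under it in every library. The floor covers counting error only.

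The summed level of all chains was 826 ± 161 TPM (SD, n = 2) in control KD and 1062 ± 149 TPM in GSTM1 KD without TNF-α. With TNF-α it was 844 ± 133 TPM in control KD and 1099 ± 162 TPM in GSTM1 KD. The lowest GSTM1 KD library (957 TPM) lay only slightly above the highest control KD library (941 TPM). The collagens took between 0.243% and 0.403% of the counts of a library. With 2 libraries against 2, no exact two-sided test can give a p-value under 0.333, so the sums are described without a test. In such bulk samples, fewer cells of a type and less RNA per cell cannot be told apart.

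In all, 11 chains were too low to test in any comparison, with 0 to 10 counts per library. These were Col6a4, Col6a6, Col9a2, Col10a1, Col13a1, Col14a1, Col19a1, Col24a1, Col25a1, Col26a1 and Col28a1. Col6a5, with 1 to 11 counts, passed the filter of low counts only when all 8 libraries were fitted together. The KD comparisons therefore covered 32 of the 44 genes and the TNF-α comparisons 33.

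The first comparison asked which collagen chains differed between GSTM1 KD and control KD astrocytes without TNF-α. The α2 chain of type V collagen was higher and the α2 chain of type I collagen was lower in GSTM1 KD. These 2 of 32 tested genes passed the threshold of 0.05 in the quasi-likelihood test of edgeR (Benjamini-Hochberg adjustment over all genes), 1 in each direction. Among all 14899 genes tested, 4.6% were called higher and 5.62% lower. The median log2 fold change of the tested chains was 0.11, and that of all genes tested was -0.002.

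The comparison with TNF-α gave 6 of 32 chains past the same threshold. Col5a2, Col11a1, Col8a1 and Col4a4 were higher and Col1a2 and Col27a1 were lower in GSTM1 KD. Among all 14593 genes tested in this state, 7.26% were called higher and 8.92% lower. The median log2 fold change was 0.08 over the tested chains and -0.01 over all genes. Without either GSTM1 KD library of a state, 0 chains passed, and only 1 and 3 of all genes did without TNF-α and 0 and 94 with TNF-α. Without control KD replicate 1 or replicate 2, more chains passed in both states than with all libraries, and so did more of all genes. Col5a2 and Col1a2 were among the chains that passed in each of these 4 cases. In both states, Col3a1 and Col5a3 were added as lower and Col4a3 as higher without control KD replicate 1. Without control KD replicate 2, Col4a5, Col4a6, Col18a1, Col6a1 and Col9a3 were added as higher in both states. Col5a1 was added as lower with TNF-α without control KD replicate 1 (log2 fold change -0.81, adjusted p = 0.0320).

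**Figure D2:**
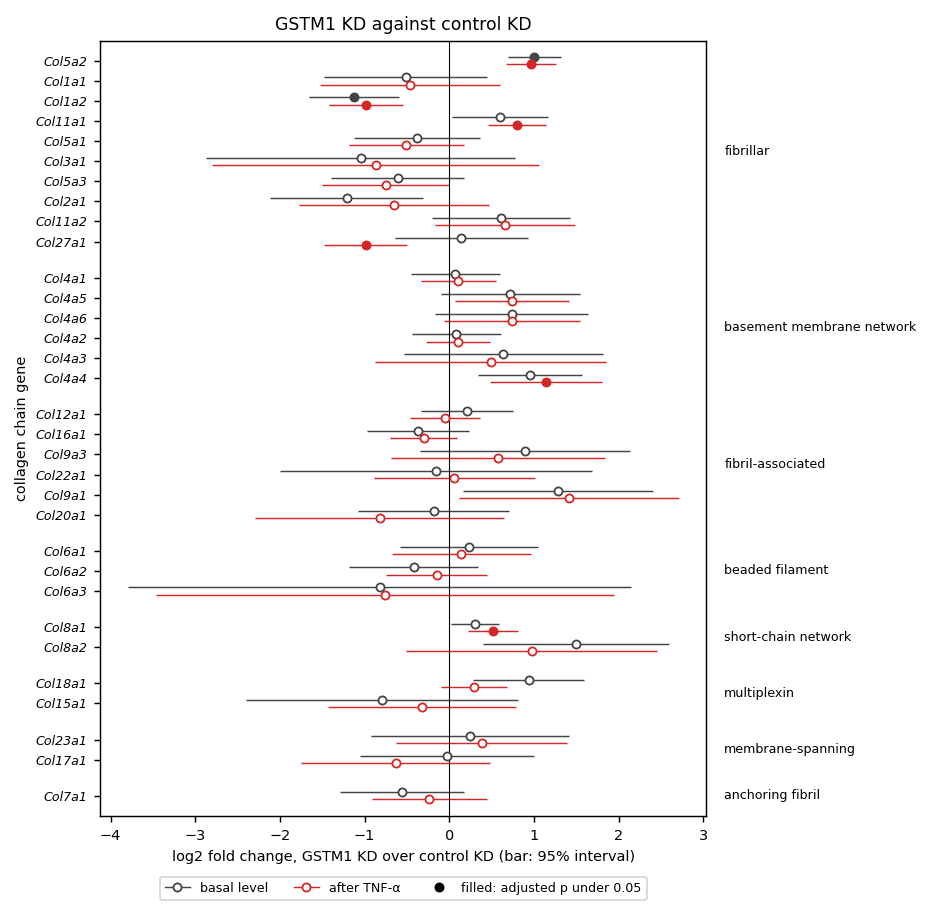
Log2 fold change of GSTM1 KD over control KD for the 32 tested collagen chains, by subfamily, without TNF-α (grey) and with TNF-α (red), with 95% intervals. Filled points passed an adjusted p of 0.05 and belong to Col5a2 and Col1a2 in both states and to Col11a1, Col27a1, Col4a4 and Col8a1 with TNF-α.

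Among the fibrillar chains, Col5a2 encodes the α2(V) chain that joins α1(V) in most type V molecules. Without TNF-α it stood at 123 and 111 TPM in control KD (replicates 1 and 2, in this order throughout) and at 237 and 248 TPM in GSTM1 KD. With TNF-α it stood at 135 and 125 TPM in control KD against 249 and 284 TPM in GSTM1 KD. All 4 GSTM1 KD libraries lay above all 4 control KD libraries, with a wide gap. The level was 2.00-fold higher in GSTM1 KD without TNF-α (log2 fold change 1.00 ± 0.13 SE, adjusted p = 0.0192) and 1.95-fold higher with TNF-α (0.96 ± 0.12, adjusted p = 0.0132).

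The partner chains of Col5a2 did not follow it. Col5a1 was measured at 19.5 and 27.8 TPM in control KD against 14.5 and 22.4 TPM in GSTM1 KD without TNF-α, and at 20.5 and 32.4 TPM against 17.1 and 25.4 TPM with TNF-α. These groups overlapped, and the log2 fold changes were -0.39 (95% interval -1.13 to 0.36) and -0.51 (-1.19 to 0.17). Col5a3, the least abundant type V chain, stood at 2.5 and 4.41 TPM against 2.09 and 2.59 TPM without TNF-α, and at 3.76 and 5.97 TPM against 2.43 and 3.68 TPM with TNF-α. It did not pass the test in either state (adjusted p = 0.243 and 0.139). The ratio of Col5a2 to Col5a1 in TPM was therefore 6.31 and 4.01 in control KD against 16.3 and 11.1 in GSTM1 KD without TNF-α. With TNF-α it was 6.60 and 3.86 in control KD against 14.5 and 11.2 in GSTM1 KD. Every GSTM1 KD library had a higher ratio than every control KD library.

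Type I collagen is the main fibril collagen of connective tissue and is assembled from Col1a1 and Col1a2 products. Col1a2, at chr6:4504814-4541544 on the plus strand (GRCm38), stood at 41.0 and 53.3 TPM in control KD against 18.1 and 26.3 TPM in GSTM1 KD without TNF-α. With TNF-α the values were 44.2 and 53.5 TPM against 21.7 and 29.4 TPM. The groups did not overlap in either state. The log2 fold change was -1.13 ± 0.21 (adjusted p = 0.0352) without TNF-α and -0.99 ± 0.17 (adjusted p = 0.0250) with TNF-α.

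Col1a1 did not pass the test. Its level was 36.5 and 64.4 TPM in control KD against 24.5 and 48.9 TPM in GSTM1 KD without TNF-α, and 30.8 and 55.9 TPM against 20.7 and 46.0 TPM with TNF-α. Replicate 2 was the higher library in each group, and the ranges of the groups overlapped. Of the libraries with the same number, that of GSTM1 KD was the lower one in all 4 cases. The log2 fold changes of -0.52 (-1.48 to 0.45) and -0.46 (-1.53 to 0.60) had intervals that held both 0 and the value of Col1a2 in the same state. The ratio of Col1a1 to Col1a2 ran from 0.89 to 1.21 in control KD and from 1.35 to 1.86 in GSTM1 KD without TNF-α. With TNF-α the ranges, 0.698 to 1.05 and 0.954 to 1.57, overlapped.

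Acta2 and Tagln were lower in the same libraries as Col1a2, while the other tested markers of the same list went both ways without TNF-α. Acta2 and Tagln, contractile genes that pericytes, smooth muscle and activated fibroblasts use, were the 2 of 6 tested genes of a list of 8 pericyte and smooth muscle markers to pass without TNF-α (log2 fold changes -1.02 and -0.98). These 2 were 33.3% of the tested markers, beside 5.62% of all genes called lower. In the state without TNF-α 3 of the 6 had positive values, Rgs5 with 1.64 (adjusted p = 0.100), Pdgfrb with 0.46 and Myh11 with 0.09. Anpep had the lowest value (-1.75) and was not called, at 17 and 12 counts in control KD against 4 and 2 in GSTM1 KD. With TNF-α, 5 were tested, Acta2 and Tagln were again lower (-0.93 and -1.01) and Pdgfrb, a receptor of pericytes, was higher (0.81). The shares called were 40% lower and 20% higher, against 8.92% and 7.26% of all genes. The median of the tested markers was -0.44 without TNF-α and 0.24 with TNF-α. The 8 markers summed to between 6556 and 8257 TPM in control KD and between 3335 and 4469 TPM in GSTM1 KD, nearly all of it Acta2 and Tagln, while Kcnj8 and Abcc9 stayed at no more than 1 count. The part of these cells in the levels of Col1a2 was not tested. Of the fibroblast markers, 0 of 7 tested passed without TNF-α, against 10.2% of all genes. With TNF-α 1 of 7, Foxc1, was lower (14.3%, against 8.92% of all genes).

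Type XI chains are minor fibril components best known from cartilage. Col11a1 stood at 21.5 and 29.9 TPM in control KD against 35.3 and 43.0 TPM in GSTM1 KD without TNF-α, and at 14.5 and 16.4 TPM against 28.0 and 34.3 TPM with TNF-α. The GSTM1 KD libraries were the higher ones in both states. The difference passed the test with TNF-α (log2 fold change 0.80 ± 0.14, adjusted p = 0.0235) and not without TNF-α (0.60 ± 0.23, adjusted p = 0.144). Col11a2, its partner, had 2.35 and 3.95 CPM in control KD against 4.46 and 5.11 CPM in GSTM1 KD without TNF-α, and 2.20 and 3.43 CPM against 3.83 and 5.11 CPM with TNF-α. The GSTM1 KD libraries were again the higher ones, but the gene did not pass in either state (adjusted p = 0.257 and 0.216). Its estimated effective length differed up to 3.39-fold between libraries, so its TPM values are not compared here.

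Col3a1 and Col6a3 differed more between replicates than between groups. Col3a1, a fibrillar chain of distensible tissue, had 13.4 and 58.8 CPM in control KD against 10.04 and 24.8 CPM in GSTM1 KD without TNF-α, and 10.2 and 59.9 CPM against 13.7 and 25.1 CPM with TNF-α. Col6a3, a chain of type VI beaded filaments, had 4.19 and 32.8 CPM against 1.93 and 19.0 CPM without TNF-α, and 3.75 and 25.4 CPM against 2.22 and 15.3 CPM with TNF-α. Replicate 2 was the higher library in every group, by 1.83-fold to 5.86-fold for Col3a1 and by 6.78-fold to 9.83-fold for Col6a3. The SE of the log2 fold change was 0.74 and 0.78 for Col3a1 and 1.20 and 1.09 for Col6a3, and neither passed in a KD comparison. Col3a1 lies tail to tail with Col5a2 on chromosome 1, with 24614 bases between the genes. Of the libraries with the same number, that of GSTM1 KD was the lower one for Col6a3 in both states and for both numbers. The same held for Col3a1 except for replicate 1 with TNF-α. Without control KD replicate 2, only the lower control KD library was set against both GSTM1 KD libraries. The sign of both genes then turned in both states, to log2 fold changes of 0.36 and 0.89 for Col3a1 and of 1.3 and 1.17 for Col6a3. Without control KD replicate 1, Col3a1 was called lower in both states (-1.76, adjusted p = 0.0265, and -1.66, adjusted p = 0.00966).

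**Figure D3:**
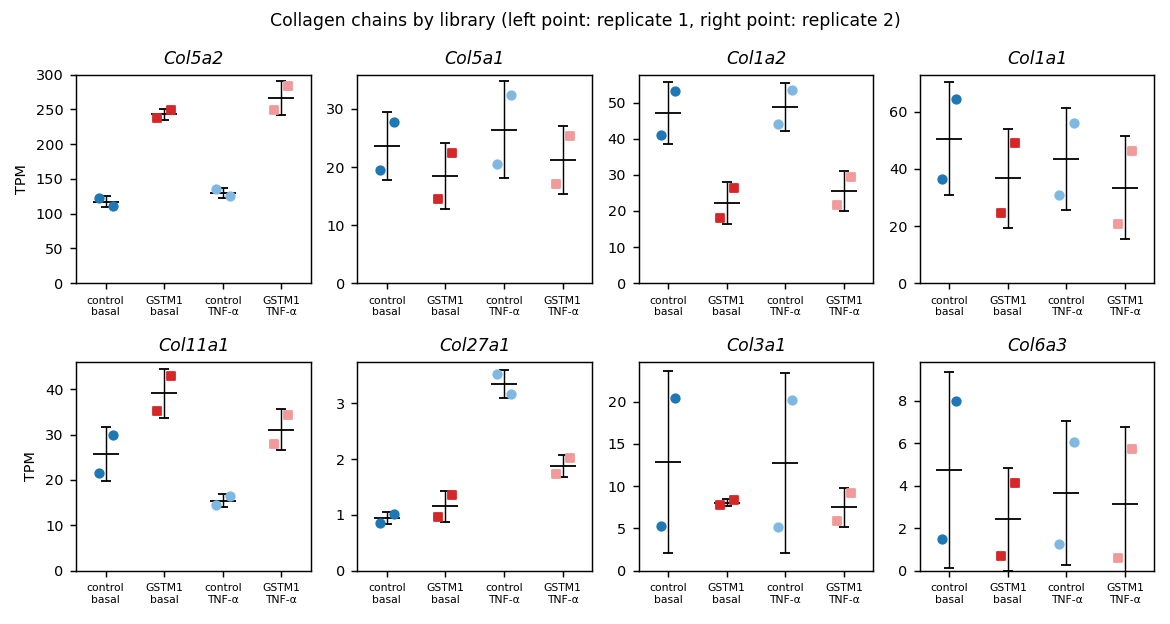
TPM of 8 collagen chains in each library, with the mean as a horizontal line, the SD of 2 replicates as a bar, and every axis starting at 0. Col5a2 is higher and Col1a2 lower in all GSTM1 KD libraries, Col27a1 is highest in control KD with TNF-α, and Col3a1 and Col6a3 differ most between replicates.

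The type IV chains come as head-to-head gene pairs, in which the members of a pair start side by side and are read in opposite directions. Col4a1 and Col4a2 encode the chains found in basement membranes of nearly all tissues. On chromosome 8 their annotated starts lie 21 bases apart and the genes overlap by 22 bases. The starts of Col4a4 and Col4a3 lie 72 bases apart on chromosome 1, and those of Col4a6 and Col4a5 lie 1309 bases apart on chromosome X. The RefSeq window of Col4a2 (chr8:11312555-11312854, plus strand, GRCm38.p6), from 250 bases before its start to 50 after it, thus also covers the start of Col4a1. It is shown because the members of this pair kept a fixed proportion. Capitals mark the Sp1 box (GGGCGG, also read as CCGCCC on the other strand) and the CCAAT box.

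Col4a2: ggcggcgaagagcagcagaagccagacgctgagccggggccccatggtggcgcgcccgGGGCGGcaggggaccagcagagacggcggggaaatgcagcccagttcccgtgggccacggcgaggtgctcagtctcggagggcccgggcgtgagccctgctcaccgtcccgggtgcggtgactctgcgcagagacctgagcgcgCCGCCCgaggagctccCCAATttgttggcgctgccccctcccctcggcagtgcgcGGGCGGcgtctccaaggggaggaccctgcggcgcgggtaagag

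An Sp1 box was found in 60.5% of the 38 windows of collagen chains and in 35.7% of all 32851 windows of this length, and a CCAAT box on either strand in 34.2% and 37.4%. A match of letters is a description and does not show that a factor binds there.

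Col4a1 stood at 71.6 and 99.7 TPM in control KD against 81.0 and 103 TPM in GSTM1 KD without TNF-α, and at 71.0 and 97.0 TPM against 85.5 and 103 TPM with TNF-α. Col4a2 stood at 34.4 and 48.5 TPM against 39.5 and 51.6 TPM without TNF-α, and at 35.2 and 44.1 TPM against 39.5 and 50.3 TPM with TNF-α. The groups overlapped for both genes. For Col4a1 the log2 fold change was 0.07 (-0.45 to 0.59) without TNF-α and 0.11 (-0.33 to 0.55) with TNF-α. The ratio of Col4a1 to Col4a2 stayed between 2.00 and 2.20 in the 8 libraries. Because the pair overlaps on opposite strands, reads at the shared start could be divided only by strand.

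Col4a5 and Col4a6 encode the α5(IV) and α6(IV) chains. Col4a5 stood at 41.3 and 76.0 TPM in control KD against 84.5 and 116 TPM in GSTM1 KD without TNF-α, and at 42.4 and 71.7 TPM against 88.7 and 115 TPM with TNF-α. Col4a6 stood at 31.5 and 67.0 TPM against 71.3 and 98.4 TPM, and at 34.3 and 66.4 TPM against 76.4 and 101 TPM. Both were above every control KD library in every GSTM1 KD library, but the control replicates lay far apart, and neither gene passed the test. The log2 fold changes were 0.72 (-0.10 to 1.54) and 0.74 (0.06 to 1.41) for Col4a5, and 0.74 (-0.17 to 1.64) and 0.74 (-0.06 to 1.54) for Col4a6. DESeq2, the study's tool, called both with TNF-α and neither without TNF-α. The ratio of Col4a5 to Col4a6 stayed between 1.08 and 1.31. The ratio of Col4a5 to Col4a1 was 0.577 and 0.762 in control KD against 1.04 and 1.13 in GSTM1 KD without TNF-α, with 0.597 and 0.740 against 1.04 and 1.11 with TNF-α.

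**Figure D4:**
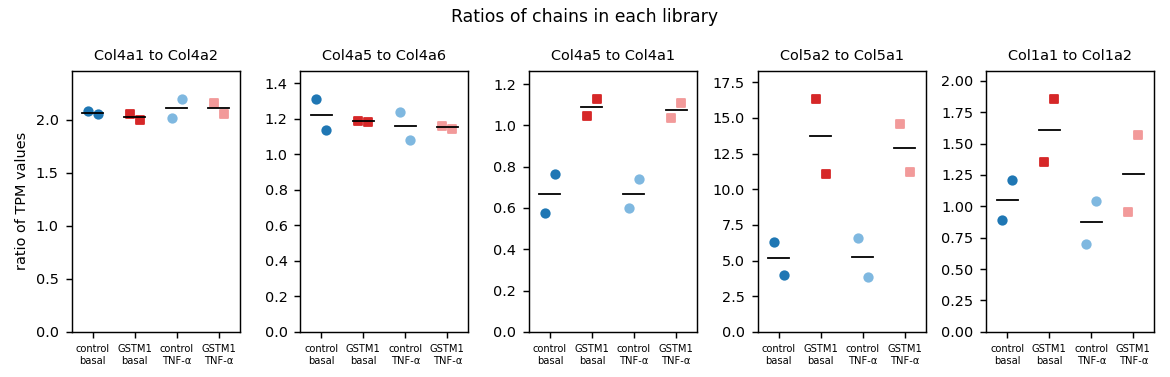
Ratios of the TPM values of 5 pairs of collagen chains in each library, with the group mean as a line and every axis starting at 0. The ratio of Col4a1 to Col4a2 stays between 2.00 and 2.20, and the ratio of Col5a2 to Col5a1 is above 11 in each GSTM1 KD library and at most 6.60 in control KD.

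Col4a3 and Col4a4, the chains of the glomerular basement membrane of the kidney, were rare. Col4a4 had 168 and 86 counts in control KD against 181 and 160 in GSTM1 KD without TNF-α, and 63 and 35 against 118 and 95 with TNF-α. Scaled to library size, these were 4.75 and 3.36 CPM against 7.77 and 8.02 CPM, and 2.71 and 2.11 CPM against 5.45 and 5.46 CPM. The GSTM1 KD libraries were higher in both states. The difference passed the test with TNF-α (log2 fold change 1.14 ± 0.27, adjusted p = 0.0438) and not without TNF-α (0.95 ± 0.25, adjusted p = 0.0678). Col4a3 had 4.35 and 1.64 CPM in control KD against 4.25 and 5.21 CPM in GSTM1 KD without TNF-α, and 4.52 and 1.32 CPM against 4.34 and 4.20 CPM with TNF-α. The groups overlapped in both states, and Col4a3 did not pass.

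Of the short-chain network collagens, Col8a1 stood at 129 and 122 TPM in control KD against 163 and 159 TPM in GSTM1 KD without TNF-α. With TNF-α it stood at 93.1 and 78.7 TPM against 128 and 130 TPM. The GSTM1 KD libraries were higher in both states. The difference passed the test with TNF-α, where it was 1.43-fold (log2 fold change 0.51 ± 0.12, adjusted p = 0.0436), and not without TNF-α, where it was 1.23-fold (0.30 ± 0.11, adjusted p = 0.141). Col8a2, its relative, had 1.02 and 2.07 CPM against 3.39 and 5.26 CPM without TNF-α, and 0.948 and 2.35 CPM against 1.94 and 4.54 CPM with TNF-α. The groups overlapped only with TNF-α. Its log2 fold changes of 1.5 (0.40 to 2.59) and 0.97 (-0.52 to 2.46) did not pass (adjusted p = 0.0860 and 0.294).

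Of the chains of other subfamilies, 0 passed in a KD comparison. Among the 6 tested fibril-associated chains were Col12a1, with log2 fold changes of 0.21 and -0.05, and Col9a1, a cartilage chain at 3 to 53 counts per library, with 1.28 (0.16 to 2.40) and 1.41 (0.12 to 2.71). Col18a1, a multiplexin of basement membranes, stood at 10.04 and 14.9 TPM in control KD against 19.4 and 30.9 TPM in GSTM1 KD without TNF-α. Its log2 fold change was 0.94 ± 0.27 (adjusted p = 0.0788) there and 0.29 ± 0.16 (adjusted p = 0.233) with TNF-α. DESeq2 called 6 chains without TNF-α, adding Col18a1, Col8a2 and Col4a4 (higher) and Col2a1 (lower) to Col5a2 and Col1a2. Of the 24716 genes it fitted there, it called 2492.

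The next comparison asked which chains responded to TNF-α. Type XXVII collagen, a fibrillar collagen known from developing cartilage, rose and Col8a1 fell in control KD, which were 2 of 33 tested chains. In GSTM1 KD, 0 of 33 passed, and 3 (Col27a1, Col8a1 and Col9a1) had an unadjusted p under 0.05. DESeq2 also called 0 in GSTM1 KD, and called Col27a1, Col8a1 and Col18a1 in control KD. Among all 15332 genes tested, 2.1% were called higher and 0.528% lower in control KD, and 2.35% higher and 0.294% lower in GSTM1 KD. The median log2 fold change of the chains was 0.07 in both KD groups, and the medians over all genes were -0.02 and -0.007.

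**Figure D5:**
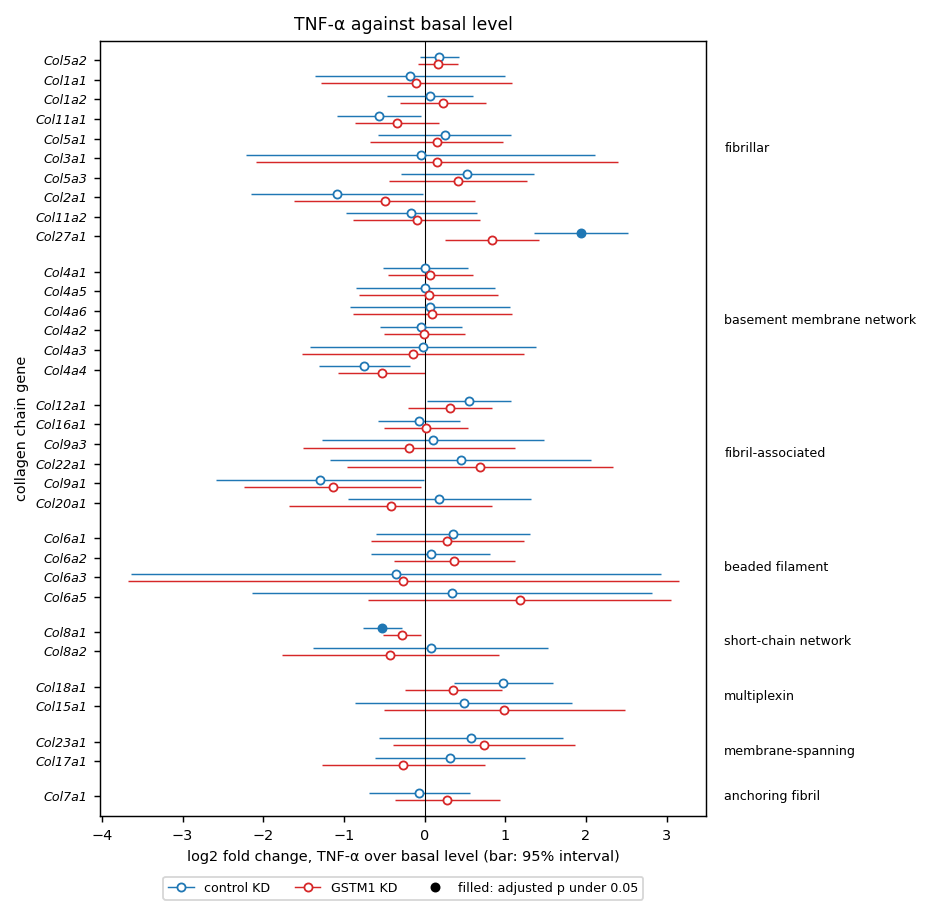
Log2 fold change of TNF-α stimulated over basal libraries for the 33 tested collagen chains, by subfamily, in control KD (blue) and GSTM1 KD (red), with 95% intervals. Filled points passed an adjusted p of 0.05, which only Col27a1 (1.94) and Col8a1 (-0.52) did, both in control KD.

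Col27a1 stood at 0.860 and 1.01 TPM in control KD against 0.960 and 1.35 TPM in GSTM1 KD without TNF-α. With TNF-α it stood at 3.53 and 3.17 TPM in control KD against 1.73 and 2.01 TPM in GSTM1 KD. These levels rested on 63 to 287 counts per library. The stimulated libraries lay above the basal ones in both KD groups, and highest in control KD. The rise was 3.84-fold in control KD (log2 fold change 1.94 ± 0.25, adjusted p = 0.00982) and 1.79-fold in GSTM1 KD (0.84 ± 0.25, adjusted p = 0.201). Of the stimulated libraries, those of GSTM1 KD were lower (log2 fold change -0.99 ± 0.20, adjusted p = 0.0307). The basal levels of the KD groups overlapped.

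Whether the KD groups differed in their response was tested as an interaction over the 8 libraries. Of the 33 chains, 0 passed, as did 0% of all genes, and 1 chain had an unadjusted p under 0.05. That chain was Col27a1, whose log2 response was lower by 1.10 in GSTM1 KD (value -1.10, 95% interval -1.92 to -0.29, adjusted p = 1.00). DESeq2 called 27 of all genes and 0 chains. The median of the chains was 0.07 and that of all genes 0.02.

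The RefSeq window around the start of Col27a1 (chr4:63215162-63215461, plus strand, GRCm38.p6) is shown because this chain responded to TNF-α, a cytokine that acts largely through the transcription factor NF-κB. The gene as annotated by GENCODE runs from 63214004 to 63334991, so the window marks a start inside it. Capitals mark the match to the NF-κB consensus (GGGRNWYYCC, where R is A or G, W is A or T, Y is C or T and N is any base). The match is on the strand opposite to the one printed. The marked stretch begins 183 bases before the start.

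Col27a1: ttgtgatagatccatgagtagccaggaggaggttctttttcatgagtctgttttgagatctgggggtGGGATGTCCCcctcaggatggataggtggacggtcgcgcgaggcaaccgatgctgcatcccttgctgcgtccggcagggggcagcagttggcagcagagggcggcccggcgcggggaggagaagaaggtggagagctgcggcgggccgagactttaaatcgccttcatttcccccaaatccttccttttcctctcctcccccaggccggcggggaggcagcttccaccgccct

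The consensus was found on either strand in 4 of the 38 windows of collagen chains (10.5%), those of Col27a1, Col6a4, Col9a1 and Col9a2, and in 4.51% of all 32851 windows. Col6a4 and Col9a2 were too low to test and Col9a1 did not pass with TNF-α. The AP-1 motif TGANTCA was found in 2.63% of the windows of chains and in 7.81% of all windows, and the TATA box TATAAA in 13.2% and 13.6%. Windows were matched for 35 of the 44 genes and not for Col1a1, Col2a1, Col4a3, Col5a2, Col9a3, Col12a1, Col14a1, Col22a1 and Col26a1. The window of Col8a1 (chr16:57754688-57754987, minus strand), the chain that fell in control KD, is shown for comparison and held no match to the NF-κB consensus. Whether NF-κB acts on either gene was not tested, and a match of letters does not show it.

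Col8a1: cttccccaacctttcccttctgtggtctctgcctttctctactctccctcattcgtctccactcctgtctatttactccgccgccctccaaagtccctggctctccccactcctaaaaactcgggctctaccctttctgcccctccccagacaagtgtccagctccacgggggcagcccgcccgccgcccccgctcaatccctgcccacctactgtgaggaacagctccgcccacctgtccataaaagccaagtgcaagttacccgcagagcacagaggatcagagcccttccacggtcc

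Col8a1 fell from 129 and 122 TPM to 93.1 and 78.7 TPM in control KD (log2 fold change -0.52 ± 0.10, adjusted p = 0.0470). In GSTM1 KD the values were 163 and 159 TPM before and 128 and 130 TPM after stimulation (-0.28 ± 0.10, adjusted p = 0.316). The stimulated libraries were the lower ones in both KD groups. The call in control KD was narrow. It remained without control KD replicate 1 with TNF-α and was lost when any of the other 7 libraries was left out, with adjusted p up to 0.222. The difference in response was 0.24 (-0.10 to 0.57) and did not pass.

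Other chains moved less than their spread allowed to call. Col18a1 stood at 22.03 and 28.0 TPM in control KD with TNF-α (log2 fold change 0.98 ± 0.26, adjusted p = 0.131) and at 27.7 and 35.0 TPM in GSTM1 KD (0.36 ± 0.26, adjusted p = 0.812). Col12a1 stood at 106 and 133 TPM before and 153 and 176 TPM after stimulation in control KD (0.55 ± 0.22, adjusted p = 0.359), and at 107 and 145 TPM before and 140 and 177 TPM after stimulation in GSTM1 KD. In control KD and GSTM1 KD, the log2 fold changes were -0.75 ± 0.24 and -0.53 ± 0.23 for Col4a4 and -0.57 ± 0.22 and -0.34 ± 0.22 for Col11a1, none past the threshold. For Col5a2, which was called in both KD comparisons, the response was 0.17 (-0.08 to 0.41) in GSTM1 KD.

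Genes that modify, secrete, crosslink and bind collagen were read from preset lists of 76 genes. In the KD comparison without TNF-α, 6 of 72 tested passed (8.33%, against 10.2% of all genes), 1 higher and 5 lower. With TNF-α, 16 of 72 passed (22.2%, against 16.2% of all genes), 3 higher (4.17% against 7.26%) and 13 lower (18.1% against 8.92%). In the response to TNF-α, 2 passed in control KD (2.78%, against 2.63% of all genes) and 3 in GSTM1 KD (4.17% against 2.65%), all higher, so these shares were near those of all genes. The calls of the KD comparisons were lost without either GSTM1 KD library. Without TNF-α they became more numerous, as did those of all genes, without control KD replicate 1 or 2. With TNF-α the same held without control KD replicate 2.

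Of 21 genes of chain hydroxylation and folding, all tested, 1 was higher and 1 lower without TNF-α, and 2 were higher and 5 lower with TNF-α. The 2 called without TNF-α were 9.52% of the list, near the share of all genes, and the 7 called with TNF-α were 33.3%. P4ha3, a catalytic subunit of prolyl 4-hydroxylase, was higher in GSTM1 KD (log2 fold change 0.94 ± 0.20, adjusted p = 0.0439, and 1.22 ± 0.11, adjusted p = 0.0105). Crtap, part of the prolyl 3-hydroxylation complex that acts on type I chains, was lower (-0.92 ± 0.13, adjusted p = 0.0222, and -0.96 ± 0.14, adjusted p = 0.0182). The median log2 fold change of the list was 0.05 without TNF-α and 0.06 with TNF-α. In neither response to TNF-α did a gene of this list pass.

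Of 15 genes of secretion and propeptide cleavage, 14 were tested. Without TNF-α 2 were lower (14.3%, against 5.62% of all genes), and with TNF-α 3 were lower (21.4% against 8.92%). Creb3l1, a transcription factor that activates collagen secretion genes, was lower in GSTM1 KD (-0.93 ± 0.12 and -0.70 ± 0.15, adjusted p = 0.0194 and 0.0343) and rose after TNF-α in GSTM1 KD (0.96 ± 0.14, adjusted p = 0.0162). Its response in control KD, 0.72 ± 0.14, just missed the threshold (adjusted p = 0.0506), and the difference in response was not called (0.25, adjusted p = 1.00). Sec24d, a coat protein of the vesicles that carry procollagen, was also lower (-0.81 ± 0.13 and -0.73 ± 0.10, adjusted p = 0.0251 and 0.0170). Adamts14, a procollagen N-proteinase, rose with TNF-α in both KD groups (0.94 ± 0.10 in control KD and 0.90 ± 0.10 in GSTM1 KD, adjusted p = 0.00519 and 0.00499), and after stimulation it was lower in GSTM1 KD than in control KD (-0.68 ± 0.11, adjusted p = 0.0190). Of all 72 genes, 0 passed in the GSTM1 KD response without GSTM1 KD replicate 1 or 2 without TNF-α or without replicate 1 with TNF-α.

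All 7 crosslinking genes were tested. Without TNF-α 1 was lower (14.3%, against 5.62% of all genes), and with TNF-α 2 were lower (28.6% against 8.92%). Loxl2, a lysyl oxidase relative, was lower in both (-0.65 ± 0.10 and -0.64 ± 0.09, adjusted p = 0.0234 and 0.0178). The 7 genes had negative values in both states, with medians of -0.65 and -0.40, beside medians of all genes of -0.002 and -0.01. None of these genes passed in a response to TNF-α. Of 11 collagen receptors and uptake genes, 10 were tested and 0 passed in a KD comparison, with 1 and 0 at an unadjusted p under 0.05. Of all genes, 10.2% and 16.2% passed. Itga2, the α subunit of a collagen-binding integrin, rose after TNF-α by a log2 fold change of 2.28 ± 0.23 in control KD and 1.74 ± 0.23 in GSTM1 KD (adjusted p = 0.00433 and 0.00923).

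Of 22 collagen-associated matrix proteins, 20 were tested. Without TNF-α 1 was lower (5.0%, against 5.62% of all genes). With TNF-α 1 was higher (5.0% against 7.26%) and 3 were lower (15.0% against 8.92%). Lama4, a laminin chain of endothelial and muscle basement membranes, was lower in both states (-1.27 ± 0.18 and -1.11 ± 0.16, adjusted p = 0.0228 and 0.0174). In neither response to TNF-α did a gene of this list pass. The medians of this list were -0.12 and -0.24 in the KD comparisons.

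Sequence overlap limits some of these values. The exons of 13 of the 44 collagen chain genes overlap those of another annotated gene, 3 of them on the same strand (Col3a1 with Gm47302, Col7a1 with Mir711 and Col20a1 with BX649560.1). The estimated effective length of 17 genes differed more than 1.5-fold between libraries, among them Col3a1 (2.28-fold), Col6a3 (1.73-fold) and Col4a3 (2.64-fold), and for these counts or CPM are the steadier measure.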

How the data were processed

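The authors mapped paired-end reads of strand-specific libraries to GRCm38 (mm10) with STAR (version 2.5.4b) and quantified genes with RSEM (version 1.3.0). Expected counts, as deposited, are estimated fragments per gene without normalization and need not be whole. The deposited TPM values are scaled to the same sum in every library. Whether counting used the strand is not given in the sources used here.

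Expected counts were rounded. edgeR (version 4.0.16, R 4.3.3) gave TMM scaling, filterByExpr and the quasi-likelihood test, with Benjamini-Hochberg adjustment over all genes at 0.05. KD comparisons used the 4 libraries of a state, and TNF-α responses and their difference all 8. TPM was used for levels and ratios, CPM is the count per 1000000 after TMM scaling, and SE and 95% intervals come from the fit. The alternatives were DESeq2 (version 1.42.0), limma-voom (limma version 3.58.1), other scalings, filters and libraries, effective-length offsets, a replicate block and leaving out each library. The procedure was tested on simulated counts.

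The members and lists were chosen with earlier results of these data known. Values in every library are given for chains past the threshold in any comparison, the 5 with the highest mean TPM and their partner chains. From the lists other than cell type markers, genes are named that passed in both KD comparisons or in a TNF-α response. Col18a1, Col12a1, Col3a1, Col6a3 and Col9a1 were otherwise singled out after their values were seen. Cell type markers past the threshold in a KD comparison are named as well, and Rgs5, Myh11, Anpep, Kdr and Aqp1 were added after their values were seen. Markers of microglia, neurons and ependyma, of which 0 passed, summed to between 1.01 and 2.09, 164 and 192, and 64.8 and 117 TPM in control KD against 0.84 and 1.67, 164 and 230, and 86.6 and 110 TPM in GSTM1 KD. P-values rest on 2 libraries per group. Figures were drawn with matplotlib (version 3.10.9).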

Additional observations from a re-analysis of the deposited data

How the results depend on the processing

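Across all alternatives, Col5a2 and Col1a2 kept their direction and passed in both KD comparisons except without a GSTM1 KD library. The number of chains past the threshold at the basal level (2) was 6 with DESeq2, 16 without a filter, 4 with all 8 libraries in the fit and 0 to 12 when a library was left out. After TNF-α stimulation (6) it was 14 without a filter and 0 to 11 when a library was left out. For TNF-α in control KD (2) it was 6 without a filter, 1 with library size only, 1 with at least 10 counts in every library, 1 with effective-length offsets, 0 with only the 4 control KD libraries and 1 to 2 when a library was left out. Col27a1 was past in each of these but the fit of 4 libraries. The numbers of synthesis, processing and receptor genes were 20, 31 and 16 (main 6) at the basal level with DESeq2, without a filter and with 8 libraries, 32 (main 16) after TNF-α stimulation without a filter, 6, 14 and 1 (main 2) for TNF-α in control KD and 5, 9 and 5 (main 3) in GSTM1 KD with DESeq2, without a filter and with the 4 libraries alone. When a library was left out they ran from 0 to 27, 0 to 29, 2 to 3 and 0 to 4. In GSTM1 KD and for the difference in response, 0 chains passed under each alternative run, and the difference was not fitted on fewer than 8 libraries except with 1 left out. The calls over all genes moved as well. At the basal level they were 1524 of 14899, with DESeq2 2492 of 24716, without a filter 3957 of 24716 and with 8 libraries 2762 of 15332. After TNF-α stimulation they were 2360 of 14593, and without a filter 4540 of 24134. For TNF-α in control KD they were 403 of 15332, with DESeq2 742 of 26474 and without a filter 1255 of 26474. The summed level kept its value within the spread.

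With the replicate number as a block, 15 and 13 chains passed in the KD comparisons and 6 in control KD after TNF-α, and 32, 27, 10 and 8 of the synthesis, processing and receptor genes. Of all genes, 4712 of 14899 and 4302 of 14593 then passed in the KD comparisons. In the responses to TNF-α, 988 of 15332 passed in control KD and 808 of 15332 in GSTM1 KD. Beside Col5a2 and Col1a2, the chains past the threshold in both states were then Col1a1 (log2 fold changes -0.54 and -0.50, adjusted p = 0.00165 and 0.0111), Col5a1, Col6a3, Col4a4, Col4a5, Col4a6, Col11a1 and Col18a1. The numbers are shared across groups but not explained in the labels. Deviations of same-numbered libraries from their group means correlated between 0.248 and 0.731 over 15332 genes, with 2 numbers only.

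The log2 fold changes of uncalled chains that turned sign did so when a library was left out. Those of Col1a1 ran from -1.12 to 0.043 after TNF-α stimulation. Those of Col3a1 ran from -1.85 to 0.36 and -1.66 to 0.89, those of Col6a3 from -3.26 to 1.3 and -2.72 to 1.17, and those of Col4a1 from -0.16 to 0.33 and -0.10 to 0.35, without and with TNF-α. The causes were not tested. With 1 library left in a group, it was assumed to vary like the others.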

Other observations

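Some collagen chains differed in the same direction between the libraries numbered 2 and 1 in all 4 groups, as ratios of CPM. Col1a1 was higher in the library numbered 2 by 1.74-fold to 2.17-fold, Col5a1 by 1.47-fold to 1.64-fold and Col8a2 by 1.55-fold to 2.48-fold. Col9a1 was lower there, with ratios from 0.466 to 0.746. The ratios of Col5a2 ran from 0.903 to 1.11 and those of Col8a1 from 0.862 to 0.992. The astrocyte markers Gfap (1.75-fold to 3.14-fold) and Aldoc (1.36-fold to 3.54-fold) were also higher in the libraries numbered 2. What the numbers mark is not given in the sources used here.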
